A study of Mus musculus with 24 samples.

Results

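This comparison sets 2 RNA-seq libraries of mouse embryonic stem cells (mESCs) that lack BPTF (BptfΔ) against the 2 wild-type (WT) libraries of the same batch, batch C. The members were chosen by sample label alone, 4 of the 24 libraries of the series. The study made mESC lines that each lack 1 accessory subunit of an ISWI chromatin remodeler and sequenced their RNA beside WT cells in 5 batches. All 4 libraries came from cells of 129S6/SvEvTac background grown in serum with LIF on gelatin, without treatment. The BptfΔ cells carried a CRISPR–Cas9 deletion in Bptf and the WT cells were the parental line. BptfΔ was profiled as 1 clone, so the deletion and anything else that sets this clone apart from its parent cannot be told apart, and p-values measure the spread between replicate libraries.

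BPTF is the large subunit that defines NURF, a complex in which it joins an ISWI ATPase, SNF2H or SNF2L, that slides nucleosomes. It carries a PHD finger and a bromodomain, which read trimethylated lysine 4 of histone H3 and acetylated histones, so that NURF is brought to active promoters and other accessible sites. In mouse, loss of Bptf is lethal in the embryo, and Bptf-deficient stem cells are known to be impaired in forming mesoderm and endoderm.

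Depth was 17.1 to 18.9 M counts in the WT libraries and 16.8 to 17.4 M in the BptfΔ libraries, and 3 counts correspond to 0.157 to 0.180 normalized CPM (counts scaled by the TMM-normalized library size). Levels below are in this unit, except that levels summed over a list are in plain CPM, without the TMM factor. The summed level of 10 embryonic stem cell markers was 4541 and 4389 in WT and 4909 and 4891 in BptfΔ, against 4345 to 6020 in the other 20 libraries. The 12 fibroblast markers summed to 12.5 and 12.1 in WT and 6.83 and 6.39 in BptfΔ, against 12.5 to 37.7 in the other 20, with 4 of them at 0 in all 4 libraries, and the 12 blood and endothelial markers to 107.9 and 108.4 in WT and 87.0 and 89.1 in BptfΔ, against 86.1 to 145 in the other 20. Of the 6 fibroblast markers tested, 4 fell, 1 of them in the chromosome 6 segment, and 2 fell without WT replicate 2 or without either BptfΔ library. Pecam1, also used by stem cells, made up most of the last sum with a mean of 69.5 in WT. All 4 libraries also held histone mRNAs and other RNAs without a poly(A) tail at levels far above the other 20 libraries, namely 4315 to 5915 against 0.730 to 7.06 for the summed level of 17 such RNAs other than histone mRNAs, although their labels name poly(A) RNA. Both groups of this comparison share this, but not to the same degree. The 60 histone genes summed to 4560 and 4438 in WT and 6244 and 6218 in BptfΔ, and although 0 of them were called, 30 were higher and 0 lower without the fold minimum. The 17 other RNAs summed to 4498 and 4315 in WT and 5097 and 5915 in BptfΔ, with 0 of the 11 tested called. The summed level of small nucleolar RNA genes went the other way, at 459 and 467 in WT and 324 and 305 in BptfΔ. Of 76 tested, 3 fell (Snord34, Snord64 and Snora24), a share of 3.95% that lies below the 8.59% of all genes tested. Without a batch term 0 of the 76 fell and 1 rose, and Snord34 and Snora24 turned to log2 fold changes of 0.49 and 1.0015. The part of these differences in the results was not tested beyond scaling without these genes and the microRNA genes.

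A gene was called when its fold change was over 2 and its edgeR adjusted p under 0.01, in a quasi-likelihood model of batch and genotype fitted on all 24 libraries. Of 15682 genes tested, 1347 (8.59%) fell and 824 (5.25%) rose. Both BptfΔ libraries lay below both WT libraries in 38.7% of the genes tested and above both in 41.2%, so a lack of overlap alone is not rare here. Without a fold minimum, 3173 (20.2%) were lower and 3350 (21.4%) higher at an adjusted p under 0.01. Genes of a segment of chromosome 6 from 66.9 to 94.3 Mb are set apart and described at the end, because 110 of its 113 genes with a WT level of at least 8 normalized CPM were lower, and 123 of all 178 tested were lower and 6 higher at an adjusted p under 0.01. Outside it, 1298 of 15504 genes fell (8.37%) and 820 rose (5.29%). The decreases were the larger changes. Their median log2 fold change was -2.15. It was -1.98 with the 104 genes at 0 in both BptfΔ libraries set to the bound that 3 counts per library allow. By the fitted values, 707 of the decreases were over 4-fold and 241 over 16-fold. However, 298 of the 1298 held at most 3 counts in each BptfΔ library, and for these genes the counts bound the size of the change only loosely. The increases had a median of 1.44, with 186 over 4-fold and 13 over 16-fold. Calls were most frequent among genes of low to intermediate level, with 18.1% lower and 10.8% higher among the 3969 genes between 1 and 10 normalized CPM in WT, and 2.48% lower and 0.731% higher among the 2463 genes over 100. Of the decreased genes outside the segment, 91.4% had both BptfΔ libraries below all 11 WT libraries of the series, and of the increased genes 82.8% had both above all 11. Over all genes tested these shares were 20.6% below and 20.02% above, and the called genes had been chosen with the same BptfΔ libraries, so that the shares are a description. The change in BptfΔ differed from the mean change of the other 5 lines at an edgeR adjusted p under 0.01 in 34.2% of all genes tested, and in the same direction as the call in 69.0% of the decreased and 88.4% of the increased genes, which share the BptfΔ libraries with that difference.

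**Figure D1:**
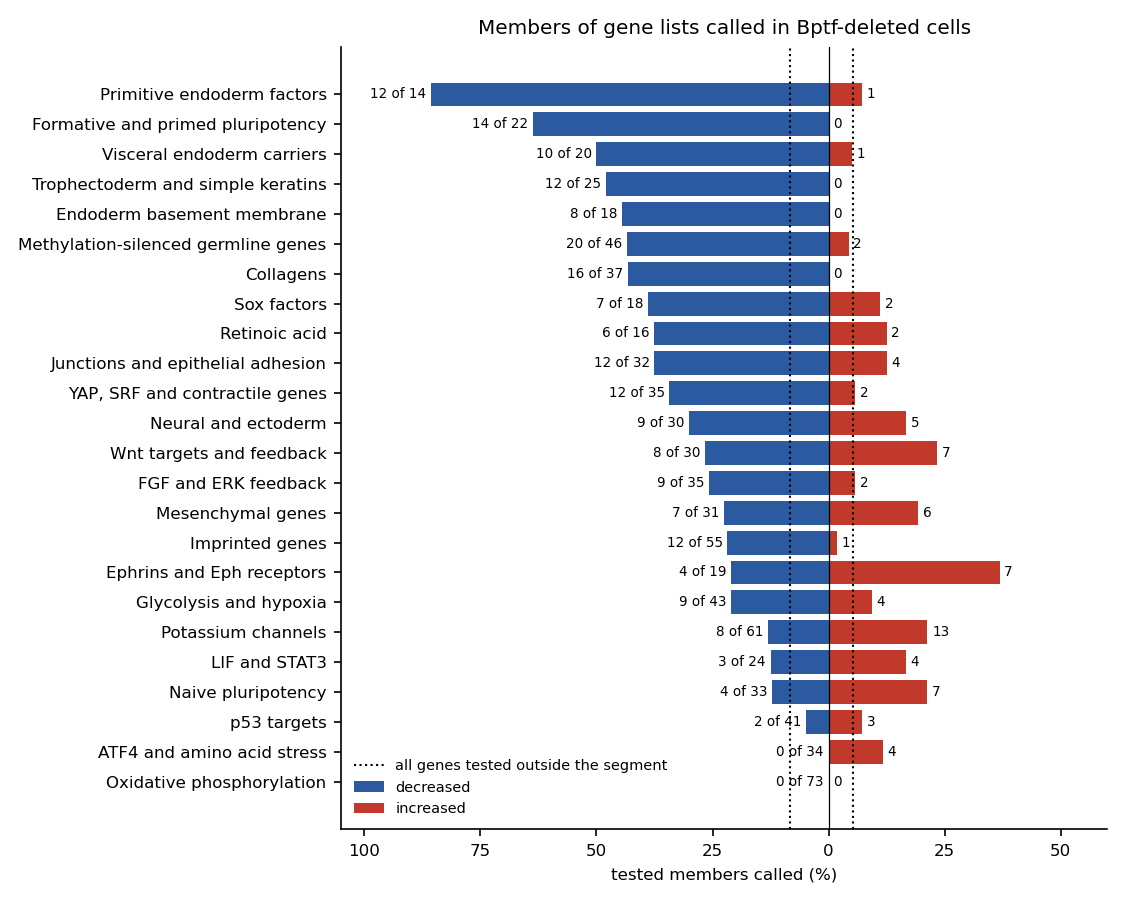
Tested members of 24 gene lists that fell (bars to the left) or rose (bars to the right) in BptfΔ, as a percentage of the members tested, with the counts printed beside the bars. Dotted lines mark the share of all genes tested outside the chromosome 6 segment, 8.37% for decreases and 5.29% for increases. The primitive endoderm list stands at 12 of 14 decreased, and the oxidative phosphorylation list at 0 of 73 in either direction.

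The targeted gene was lower in both libraries of the line. Bptf (gene ID 207165 in the count table; chromosome 11, 107033081 to 107132147 of GRCm38) was at 301 and 320.5 in WT and 81.6 and 77.5 in BptfΔ, a log2 fold change of -1.97 ± 0.11 (edgeR adjusted p = 5.9e-14). Here and below ± gives the standard error of the fitted log2 fold change, with 2 libraries in each group. The 2 BptfΔ libraries lay far below both WT libraries. Of the 14 genes of ISWI complexes tested, 4 fell, Bptf included, and 0 rose. Baz1a, which encodes ACF1 of the ACF and CHRAC complexes, was at 80.5 and 79.3 in WT and 23.5 and 24.4 in BptfΔ (log2 fold change -1.74 ± 0.071, edgeR adjusted p = 4.0e-17). Cecr2, the subunit that defines CERF, was at 120.3 and 122 in WT and 42.9 and 39.3 in BptfΔ (log2 fold change -1.56 ± 0.094, edgeR adjusted p = 1.5e-13). Smarca1, which encodes the ATPase SNF2L, was at 53.7 and 50.6 in WT and 17.4 and 18.8 in BptfΔ (log2 fold change -1.53 ± 0.091, edgeR adjusted p = 1.1e-13). For these 3 genes the groups did not overlap, and each change differed from the mean change of the other 5 lines, by -1.03 ± 0.077 (edgeR adjusted p = 2.2e-11) for Baz1a, -1.65 ± 0.10 (edgeR adjusted p = 5.2e-13) for Cecr2 and -1.46 ± 0.10 (edgeR adjusted p = 2.8e-12) for Smarca1 on the log2 scale. In the lines that lack ACF1 and CECR2 the gene itself was the target, which enters that mean. The main ATPase gene Smarca5 (SNF2H) was at 409 and 413 in WT and 357 and 339 in BptfΔ, a log2 fold change of -0.24 ± 0.074 (edgeR adjusted p = 0.0086), below the fold minimum, and Rbbp4, Rsf1, Baz1b and Baz2a had log2 fold changes between -0.07 and 0.10.

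Of the 16 genes of CTCF and the cohesin complex, 1 (6.25%) fell, against 8.59% of all genes tested. Ctcfl, a germline paralogue of CTCF, was at 1.15 and 1.23 in WT and 0.0599 and 0.0578 in BptfΔ. Its 2 BptfΔ libraries held 1 count each, and WT was 20.2 times as high (95% counting interval 5.26 to 172). Ctcf was at 259.8 and 264 in WT and 280.2 and 273 in BptfΔ (log2 fold change 0.08 ± 0.056, edgeR adjusted p = 0.25), so its 2 groups lay close together. Rad21, the cohesin kleisin, was higher at 385 and 397 in WT and 550.2 and 537 in BptfΔ (log2 fold change 0.47 ± 0.065, edgeR adjusted p = 6.7e-07) without reaching the fold minimum. Among 31 genes of the SWI/SNF, CHD and INO80 remodelers, Smarca2, which encodes the ATPase BRM, fell and Smarcd3, which encodes BAF60C, rose. That is 3.23% each way, below the 8.59% and 5.25% of all genes tested. Without a batch term 3 of these 31 genes fell. Smarca2 was at 6.40 and 6.19 in WT and 1.32 and 1.16 in BptfΔ (log2 fold change -2.35). Smarcd3 was at 18.2 and 17.1 in WT and 51.4 and 51.5 in BptfΔ (log2 fold change 1.54).

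Naive pluripotency genes leaned upwards. These transcription factors and surface proteins mark mESCs that correspond to the inner cell mass. Of 33 tested, 7 rose (Prdm14, Jam2, Tfcp2l1, Tbx3, Esrrb, Tcl1 and Klf4) and 4 fell (Dppa3, Aire, Utf1 and Lin28a), and without the fold minimum 18 (54.5%) were higher, against 21.4% of all genes tested. Tfcp2l1, a factor of the naive network, was at 719 and 761 in WT and 2043 and 2027 in BptfΔ (log2 fold change 1.46 ± 0.088, edgeR adjusted p = 1.5e-13). Prdm14, which represses DNA methyltransferases and FGF signalling in naive cells, was at 30.1 and 29.2 in WT and 98.00 and 89.96 in BptfΔ (log2 fold change 1.66 ± 0.072, edgeR adjusted p = 1.7e-16). Esrrb, an orphan nuclear receptor, was at 453 and 447 in WT and 1004 and 1049.9 in BptfΔ (log2 fold change 1.19 ± 0.062, edgeR adjusted p = 8.2e-15). In each of these genes both BptfΔ libraries were above both WT libraries. Nanog was at 390.4 and 374 in WT and 757 and 733 in BptfΔ, a log2 fold change of 0.96 ± 0.051 (edgeR adjusted p = 8.6e-15), just under the fold minimum, and Pou5f1 (OCT4) was at 1124 and 1081 in WT and 1132 and 1149 in BptfΔ (log2 fold change 0.05 ± 0.068, edgeR adjusted p = 0.57). Dppa3 (Stella), a maternal factor also made in naive cells, went the other way, with 4.36 and 4.38 in WT and 0.299 and 0.231 in BptfΔ (log2 fold change -4.02 ± 0.39, edgeR adjusted p = 2.1e-09), as did Lin28a, an RNA-binding protein that blocks let-7 processing, at 733 and 719 in WT and 354 and 349 in BptfΔ (log2 fold change -1.05 ± 0.057, edgeR adjusted p = 1.9e-14). The call of Aire was lost without BptfΔ replicate 2 or WT replicate 1. In a model without a batch term, that is, against all 11 WT libraries at once, 3 of the 7 increases (Prdm14, Jam2 and Tfcp2l1) were called and those of Esrrb, Klf4, Tbx3 and Tcl1 were lost, as was the decrease of Lin28a.

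Genes that mark exit from the naive state fell more often than they rose. Of 22 formative and primed pluripotency genes tested, 14 fell and 0 rose, with a median log2 fold change of -1.70 against 0.01 over all genes tested. Dnmt3a, Dnmt3b and Grhl2, described below with other lists, are among them. Otx2, the homeodomain factor that drives this transition, was at 22.9 and 20.4 in WT and 4.19 and 4.97 in BptfΔ (log2 fold change -2.24 ± 0.11, edgeR adjusted p = 2.3e-15). Pou3f1 (OCT6) was at 14.6 and 15.8 in WT and 2.45 and 1.44 in BptfΔ (log2 fold change -2.96 ± 0.17, edgeR adjusted p = 7.5e-14). Lef1, the Wnt effector induced in primed cells, was at 4.57 and 4.49 in WT and 0.299 and 0.0578 in BptfΔ (log2 fold change -4.64 ± 0.40, edgeR adjusted p = 2.2e-10). The groups did not overlap in any of these genes. Fgf5, the classical epiblast marker, was near the floor of detection in WT already, with 0.682 and 0.642 in WT and 0 and 0.231 in BptfΔ, and its call did not hold without either WT library or without BptfΔ replicate 1. Tcf15, Foxd3, Etv4 and Etv5, which are on the same list, were higher without passing the fold minimum, with log2 fold changes of 0.22 to 0.60.

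The enzymes that set new DNA methylation were among the 46 decreased genes outside the segment with a WT level over 100 normalized CPM. Dnmt3a was at 187 and 182 in WT and 28.1 and 31.4 in BptfΔ (log2 fold change -2.63 ± 0.068, edgeR adjusted p = 2.3e-21). Dnmt3b was at 374 and 390.5 in WT and 105 and 109 in BptfΔ (log2 fold change -1.83 ± 0.062, edgeR adjusted p = 8.4e-19). Their cofactor Dnmt3l was at 297 and 298 in WT and 55.2 and 56.5 in BptfΔ (log2 fold change -2.41 ± 0.062, edgeR adjusted p = 2.2e-21). All 3 changes were below the mean change of the other 5 lines, with differences of -3.14 ± 0.073 (edgeR adjusted p = 1.1e-21), -1.42 ± 0.067 (edgeR adjusted p = 2.6e-15) and -1.57 ± 0.066 (edgeR adjusted p = 2.8e-16) in the same order. They were the only members called of the 16 DNA methylation genes tested. The maintenance methyltransferase Dnmt1 was at 532 and 515 in WT and 616 and 619.7 in BptfΔ (log2 fold change 0.24 ± 0.059, edgeR adjusted p = 0.0013), its partner Uhrf1 had a log2 fold change of 0.06, and the demethylating dioxygenases Tet1 and Tet2 had -0.19 and 0.20.

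**Figure D2:**
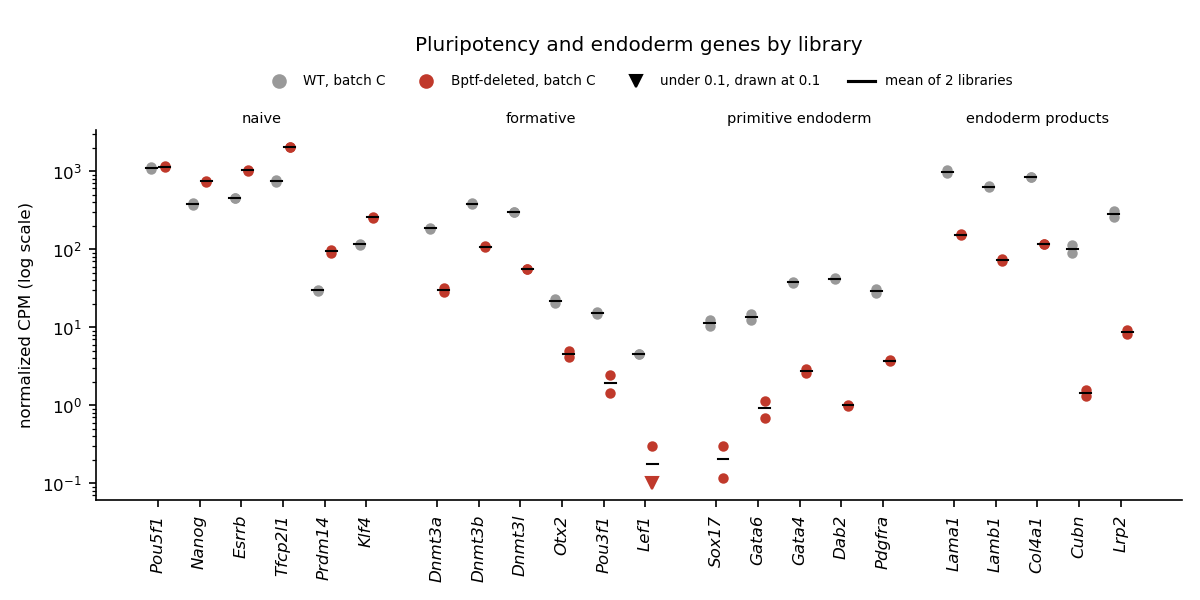
Normalized CPM on a log axis of 22 pluripotency and endoderm genes in the 2 WT (grey) and 2 BptfΔ (red) libraries of batch C, with bars at the mean. The 2 libraries of a group lie close together. The naive genes shown are level or higher in BptfΔ, and the formative, endoderm and basement membrane genes shown are lower. The genes were picked, and other members of these lists went the other way.

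Genes of the primitive endoderm, an extraembryonic lineage that single cells of a serum culture can enter, made up the list with the highest share of decreases apart from the Y-linked genes. Of 14 genes for its transcription factors, receptors and regulators, 12 (85.7%) fell and 1 rose, with a median of -3.40. Gata6, the factor that starts the lineage, was at 12.5 and 14.7 in WT and 1.14 and 0.693 in BptfΔ (log2 fold change -3.89 ± 0.22, edgeR adjusted p = 5.2e-14). Gata4 was at 38.3 and 37.2 in WT and 2.93 and 2.60 in BptfΔ (log2 fold change -3.77 ± 0.18, edgeR adjusted p = 1.6e-15). Sox17 was at 10.3 and 12.4 in WT and 0.299 and 0.116 in BptfΔ (log2 fold change -5.75 ± 0.31, edgeR adjusted p = 1.5e-14). Pdgfra, a receptor used to sort these cells, was at 27.7 and 30.8 in WT and 3.71 and 3.76 in BptfΔ (log2 fold change -2.96 ± 0.15, edgeR adjusted p = 2.7e-15). Dab2, an endocytic adaptor, was at 41.3 and 42.5 in WT and 1.02 and 0.982 in BptfΔ (log2 fold change -5.38 ± 0.16, edgeR adjusted p = 6.3e-20). Both WT libraries held at least 10.3 of each of these 5 genes, and no BptfΔ library held more than 3.76. Tmem51 was the member that rose, at 15.7 and 16.6 in WT and 33.4 and 33.9 in BptfΔ (log2 fold change 1.06 ± 0.089, edgeR adjusted p = 1.2e-10), a call that the model without a batch term did not make. Fewer cells of this lineage and less RNA in each such cell cannot be told apart in bulk RNA.

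Some of the products of endoderm cells fell. Endoderm cells lay down the first basement membrane of the embryo and take up nutrients by receptor-mediated endocytosis. Of 18 basement membrane genes 8 fell and 0 rose, and without the fold minimum 10 were lower and 4 higher. Lama1, Lamb1 and Col4a1 encode chains of laminin-111 and collagen IV and fell from high levels, Lama1 with 939 and 1029 in WT and 150.4 and 156 in BptfΔ (log2 fold change -2.68 ± 0.13, edgeR adjusted p = 1.1e-15), Lamb1 with 622 and 645 in WT and 70.9 and 74.2 in BptfΔ (log2 fold change -3.13 ± 0.076, edgeR adjusted p = 1.1e-21) and Col4a1 with 845 and 843 in WT and 115 and 115 in BptfΔ (log2 fold change -2.88 ± 0.11, edgeR adjusted p = 4.8e-18). Lamc1, Nid2 and Fn1, on the same list and also made by other cells, were not called and had log2 fold changes of 0.08, 0.04 and 0.04. Of 20 visceral endoderm genes tested, 10 fell and 1 rose. Cubn and Lrp2, the paired receptors cubilin and megalin, were both lower. Cubn was at 90.1 and 114 in WT and 1.56 and 1.33 in BptfΔ (log2 fold change -6.14 ± 0.30, edgeR adjusted p = 2.1e-15) and Lrp2 at 262 and 311 in WT and 9.34 and 8.20 in BptfΔ (log2 fold change -5.03 ± 0.23, edgeR adjusted p = 4.6e-16). The member that rose was Trf (transferrin), at 8.61 and 8.52 in WT and 21.4 and 21.7 in BptfΔ (log2 fold change 1.33 ± 0.12, edgeR adjusted p = 6.5e-10). The decreases of Cubn, Lrp2, Gata4, Gata6 and Sox17 differed from the mean change of the other lines by -5.27, -4.53, -2.40, -2.46 and -4.12 on the log2 scale, each with an edgeR adjusted p under 0.01. For Col4a1 and Lama1 the difference was -0.88 and -1.07, against own log2 fold changes of -2.88 and -2.68.

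Collagen and epithelial genes fell more often than they rose. Of 37 collagen genes tested, 16 fell (9 without BptfΔ replicate 2) and 0 rose, with a median of -1.65, or -1.01 with the 3 genes at 0 in BptfΔ set to their bound. The few laminins also fell more often than they rose, with 3 of 10 down and 1 up. Integrins and proteases did not share this direction, with 3 of 25 integrins each way, and 5 of 30 Adamts and Adam proteases down and 6 up (3 up without a batch term). The fibroblast markers, of which 3 are also in the collagen family and 9 in the mesenchymal list below, were lower in the same libraries with the sums given above, and their part in these counts was not tested. Of 25 trophectoderm and simple keratin genes, 12 fell and 0 rose. Only 5 of these 12, and 8 of the 16 collagens, also differed from the mean change of the other 5 lines at an edgeR adjusted p under 0.01. Among all decreased genes outside the segment the share was 69.0%. Krt18, a keratin of simple epithelia, was at 63.1 and 68.05 in WT and 11.3 and 11.8 in BptfΔ (log2 fold change -2.50 ± 0.11, edgeR adjusted p = 2.3e-16). Anxa2, a membrane-binding annexin, was at 55.8 and 57.4 in WT and 1.38 and 2.08 in BptfΔ (log2 fold change -5.02 ± 0.12, edgeR adjusted p = 1.3e-21). Of 32 genes of junctions and epithelial adhesion, 12 fell and 4 rose (2 without a batch term). Esrp1, a splicing factor of epithelial isoforms, was at 43.9 and 43.9 in WT and 0.718 and 0.982 in BptfΔ (log2 fold change -5.68 ± 0.14, edgeR adjusted p = 2.2e-21). Epcam, an adhesion molecule, was at 162 and 157 in WT and 44.7 and 45.2 in BptfΔ (log2 fold change -1.83 ± 0.082, edgeR adjusted p = 3.0e-16). Grhl2, an epithelial transcription factor, was at 50.8 and 53.9 in WT and 5.63 and 5.60 in BptfΔ (log2 fold change -3.22 ± 0.10, edgeR adjusted p = 6.5e-20). BptfΔ was the lower group in all 3 without overlap. Cdh3 (P-cadherin) and the protease inhibitor gene Spint1 rose, at 27.2 and 28.5 in WT and 63.5 and 66.2 in BptfΔ (log2 fold change 1.22) and 63.9 and 61.1 in WT and 153 and 156 in BptfΔ (log2 fold change 1.30), and Cdh1 (E-cadherin) was at 369 and 390.0 in WT and 257 and 265 in BptfΔ (log2 fold change -0.54 ± 0.056, edgeR adjusted p = 6.7e-09), under the fold minimum. Mesenchymal genes moved both ways, with 7 of 31 down (4 without BptfΔ replicate 2) and 6 up. Among them Zeb1, a repressor of epithelial genes, was at 15.3 and 15.8 in WT and 43.2 and 44.6 in BptfΔ (log2 fold change 1.496 ± 0.11, edgeR adjusted p = 3.8e-12). Loxl2, a lysyl oxidase, was at 34.3 and 35.3 in WT and 3.47 and 2.25 in BptfΔ (log2 fold change -3.61 ± 0.13, edgeR adjusted p = 5.8e-18).

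Genes regulated by YAP and SRF and genes of the contractile apparatus fell in 12 of 35 cases and rose in 2. Ankrd1, a classical YAP target, was at 10.4 and 10.7 in WT and 0 and 0 in BptfΔ, so WT was at least 59.7-fold higher. Thbs1 and Ccn2 encode matricellular proteins. Thbs1 was at 44.6 and 45.9 in WT and 1.08 and 1.27 in BptfΔ (log2 fold change -5.26 ± 0.20, edgeR adjusted p = 1.5e-17). Ccn2 was at 99.2 and 105 in WT and 17.9 and 19.5 in BptfΔ (log2 fold change -2.45 ± 0.077, edgeR adjusted p = 1.7e-19). Tagln, the smooth muscle protein transgelin, was at 33.8 and 32.2 in WT and 3.35 and 3.76 in BptfΔ (log2 fold change -3.21 ± 0.12, edgeR adjusted p = 1.1e-17). Acta2, smooth muscle actin, was at 6.46 and 7.12 in WT and 0 and 0.173 in BptfΔ, where WT was 76.8 times as high (95% counting interval 25.96 to 375). No BptfΔ library reached a WT library in these genes. The factors themselves were less changed, with log2 fold changes of -0.14 for Srf and -0.48 for Tead1, while Tead4 rose, at 22.4 and 20.9 in WT and 55.02 and 57.6 in BptfΔ (log2 fold change 1.38 ± 0.11, edgeR adjusted p = 5.8e-11), a call not made without a batch term. Cald1 (caldesmon), the other member that rose, was at 54.3 and 58.01 in WT and 121 and 123 in BptfΔ (log2 fold change 1.12), and the model without a batch term turned its log2 fold change to -0.18.

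SRF binds the CArG box, and the promoters of this class can be read for it. A RefSeq promoter sequence (GRCm38.p6, 250 bases before to 50 after a start, all given starts of a gene) was held for 28 of the 35 genes, and 6 of them carried a CArG box on either strand, against 1.57% of all 12223 tested genes with such a sequence. The list was written to hold genes regulated by SRF, so a share above that of all genes was built in. A match describes letters and is not a measured site. Of the 6, Acta1, Fhl2 and Myl9 fell, and Cnn2, Srf and Vcl were not called. The 28 included 10 called genes. Stretches of 100 bases from the 250 before the start are shown for 4 of them, to set the fallen genes beside Cnn2, on the strand of the gene with the CArG box in capitals.
Acta1, chr8:123894776-123894875, minus strand: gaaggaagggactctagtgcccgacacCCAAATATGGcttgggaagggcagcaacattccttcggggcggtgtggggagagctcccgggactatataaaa
Fhl2, chr1:43163962-43164061, minus strand: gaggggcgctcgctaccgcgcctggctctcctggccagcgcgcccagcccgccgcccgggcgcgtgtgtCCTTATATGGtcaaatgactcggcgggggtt
Myl9, chr2:156775283-156775382, plus strand: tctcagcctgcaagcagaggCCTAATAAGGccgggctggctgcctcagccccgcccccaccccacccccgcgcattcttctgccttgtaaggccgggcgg
Cnn2, chr10:79988500-79988599, plus strand: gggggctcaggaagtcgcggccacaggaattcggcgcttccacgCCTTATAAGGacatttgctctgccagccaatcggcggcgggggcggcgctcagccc
Acta1, skeletal muscle actin, was at 2.83 and 2.63 in WT and 0 and 0.116 in BptfΔ, and WT was 46.5 times as high (95% counting interval 12.5 to 389). Fhl2, a LIM protein, was at 5.46 and 5.43 in WT and 0.539 and 0.347 in BptfΔ (log2 fold change -3.61 ± 0.35, edgeR adjusted p = 2.0e-09). Myl9, a myosin light chain, was at 7.66 and 8.46 in WT and 3.29 and 2.72 in BptfΔ (log2 fold change -1.42 ± 0.19, edgeR adjusted p = 4.7e-07). Cnn2, calponin 2, was at 71.9 and 72.8 in WT and 36.8 and 38.3 in BptfΔ, and its log2 fold change of -0.95 ± 0.072 (edgeR adjusted p = 1.6e-11) stayed under the fold minimum.

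Signalling pathways showed decreases and increases side by side. Of 30 Wnt targets and feedback genes, 8 fell (5 without WT replicate 2) and 7 rose. The secreted Wnt antagonists Sfrp1, Sfrp2 and Notum rose, Sfrp1 with 122 and 124 in WT and 427 and 425 in BptfΔ (log2 fold change 1.80 ± 0.056, edgeR adjusted p = 1.7e-19), Sfrp2 with 5.93 and 5.84 in WT and 29.99 and 31.9 in BptfΔ (log2 fold change 2.39 ± 0.12, edgeR adjusted p = 3.9e-15) and Notum with 16.2 and 14.6 in WT and 65.5 and 71.01 in BptfΔ (log2 fold change 2.15 ± 0.10, edgeR adjusted p = 7.2e-16). The antagonist Dkk1 fell with 2.41 and 2.28 in WT and 0.239 and 0.231 in BptfΔ (log2 fold change -3.29 ± 0.46, edgeR adjusted p = 9.3e-07). Axin2, the most general target of β-catenin, was at 8.14 and 8.81 in WT and 5.57 and 4.62 in BptfΔ (log2 fold change -0.73 ± 0.15, edgeR adjusted p = 2.4e-04), lower without passing the fold minimum. Sp5, also on this list, was near the floor with 1.84 and 2.22 in WT and 0.539 and 0.867 in BptfΔ, and its call was lost when any 1 of the 4 libraries was left out.

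Of 28 genes of Nodal and BMP signalling, 5 fell and 3 rose. Lefty1 and Lefty2 are induced by Nodal and inhibit it. Lefty1 was at 45.9 and 44.9 in WT and 5.21 and 5.14 in BptfΔ (log2 fold change -3.13 ± 0.11, edgeR adjusted p = 4.0e-18). Lefty2 was at 40.3 and 41.2 in WT and 4.19 and 3.70 in BptfΔ (log2 fold change -3.37 ± 0.11, edgeR adjusted p = 1.7e-19). Both were low in both BptfΔ libraries, while Nodal itself was at 78.6 and 75.3 in WT and 129 and 131 in BptfΔ (log2 fold change 0.76 ± 0.072, edgeR adjusted p = 1.2e-09), higher without passing the fold minimum. Id4 and Smad6, which respond to BMP, rose, Id4 with 2.52 and 3.56 in WT and 12.8 and 12.2 in BptfΔ (log2 fold change 2.05) and Smad6 with 7.09 and 6.94 in WT and 18.02 and 18.8 in BptfΔ (log2 fold change 1.39), whereas Id2 fell at 45.5 and 48.4 in WT and 22.5 and 23.1 in BptfΔ (log2 fold change -1.04) and Id1 and Id3 had log2 fold changes of -0.04 and -0.11.

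Of 35 FGF and ERK feedback genes, 9 fell and 2 rose (1 without a batch term). Without the fold minimum 17 (48.6%) were lower and 4 (11.4%) higher, against 20.2% and 21.4% of all genes tested. Egr1, an immediate early factor, was at 6.88 and 5.95 in WT and 0.778 and 0.636 in BptfΔ (log2 fold change -3.18 ± 0.21, edgeR adjusted p = 1.3e-12). Spry2, an inhibitor of receptor tyrosine kinase signalling, was at 172 and 171 in WT and 60.2 and 62.1 in BptfΔ (log2 fold change -1.48 ± 0.063, edgeR adjusted p = 9.9e-17). Fgf4, Dusp6 and Etv5, read as measures of ERK activity in mESCs, had log2 fold changes of -0.18, 0.12 and 0.22, so the list leaned downwards without moving as one. In the LIF and STAT3 list 3 of 24 fell and 4 rose (1 without a batch term), and 11 (45.8%) were higher without the fold minimum, against 21.4% of all genes tested. The kinase gene Jak2 was at 7.93 and 6.07 in WT and 17.2 and 18.1 in BptfΔ (log2 fold change 1.33 ± 0.15, edgeR adjusted p = 3.1e-08, not called without a batch term). Socs3, a feedback inhibitor, was at 138 and 123 in WT and 191 and 196 in BptfΔ (log2 fold change 0.57 ± 0.072, edgeR adjusted p = 2.1e-07). Socs2, another, was at 62.99 and 72.8 in WT and 17.9 and 16.01 in BptfΔ (log2 fold change -2.001 ± 0.084, edgeR adjusted p = 7.8e-17). Socs3 was higher and Socs2 lower in BptfΔ, the latter called and the former not.

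Notch genes included 5 of 20 down (3 without BptfΔ replicate 1) and 2 up (1 without WT replicate 2 or without a batch term). Dll1, a ligand, was at 3.99 and 3.09 in WT and 0.479 and 0.751 in BptfΔ (log2 fold change -2.52 ± 0.33, edgeR adjusted p = 3.7e-07). Hes1, a target gene, was at 33.5 and 30.4 in WT and 85.7 and 83.8 in BptfΔ (log2 fold change 1.40 ± 0.089, edgeR adjusted p = 4.5e-13). Of 15 hedgehog genes, Hhip, which binds and blocks the ligands, rose strongly with 1.68 and 2.10 in WT and 32.7 and 32.4 in BptfΔ (log2 fold change 4.11 ± 0.20, edgeR adjusted p = 1.1e-15), and Boc, a co-receptor, was at 3.46 and 1.81 in WT and 5.69 and 7.05 in BptfΔ, a call lost without WT replicate 2 or without a batch term. Gli3, a transcription factor of the pathway, fell with 15.3 and 16.8 in WT and 4.13 and 5.26 in BptfΔ (log2 fold change -1.77 ± 0.19, edgeR adjusted p = 1.0e-08), while Ptch1 and Gli1, its general targets, had log2 fold changes of -0.14 and -0.16. Of 16 retinoic acid genes, 6 fell and 2 rose. Rxra, a partner receptor, was at 22.6 and 20.7 in WT and 112 and 116 in BptfΔ (log2 fold change 2.39 ± 0.11, edgeR adjusted p = 1.3e-15). Its relative Rxrg was at 2.41 and 2.51 in WT and 0.120 and 0.231 in BptfΔ (log2 fold change -3.76 ± 0.54, edgeR adjusted p = 1.5e-06). Stra6, the retinol transporter, was at 2.05 and 1.28 in WT and 0.0599 and 0.116 in BptfΔ, where WT was 19.1 times as high (95% counting interval 6.24 to 95.2). Cyp26a1, which degrades retinoic acid, was at 2.78 and 3.44 in WT and 0.120 and 0.231 in BptfΔ (log2 fold change -4.10 ± 0.46, edgeR adjusted p = 2.5e-08). Dhrs3, which reduces retinal, rose with 1.89 and 1.63 in WT and 7.42 and 7.80 in BptfΔ (log2 fold change 2.10).

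**Figure D3:**
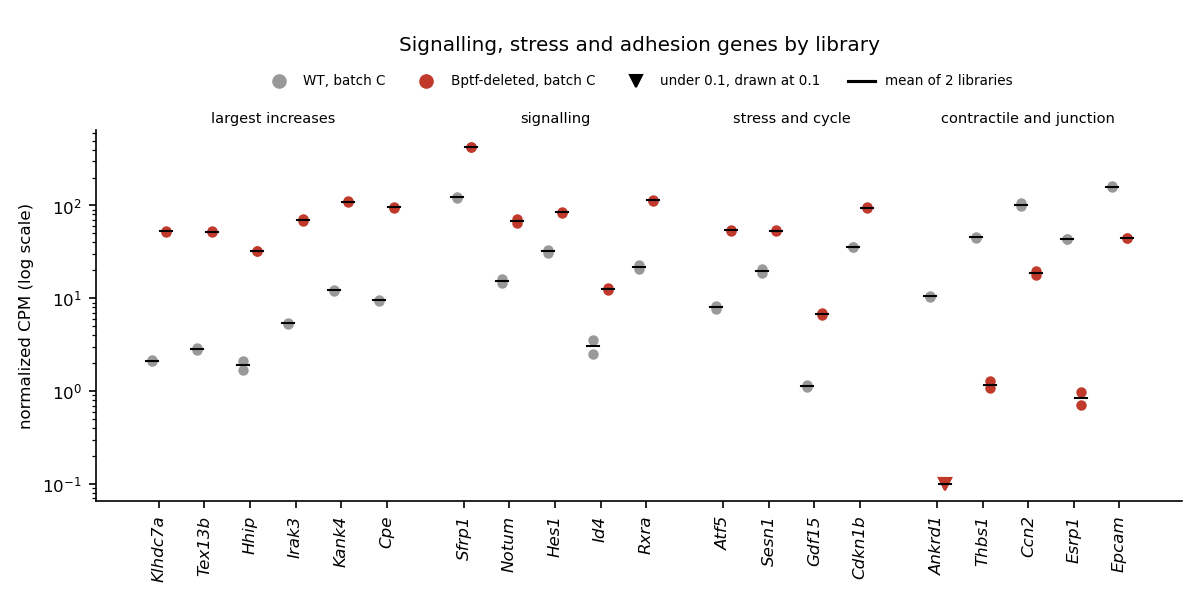
Normalized CPM on a log axis of 20 further genes in the 2 WT (grey) and 2 BptfΔ (red) libraries of batch C, with bars at the mean and triangles for libraries under 0.1. The first 3 groups are higher in BptfΔ, and the contractile and junction genes shown are lower, with both BptfΔ libraries of Ankrd1 at 0. The genes were picked, and other members of their lists went the other way.

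Germline genes fell in 20 of 46 cases and rose in 2. These genes are normally silenced by promoter methylation in somatic cells. Tdrd12, a piRNA pathway factor, was at 45.2 and 47.7 in WT and 0.898 and 1.68 in BptfΔ (log2 fold change -5.16 ± 0.15, edgeR adjusted p = 1.6e-20). Sycp1, a synaptonemal complex protein, was at 22.9 and 24.3 in WT and 3.53 and 4.22 in BptfΔ (log2 fold change -2.60 ± 0.14, edgeR adjusted p = 1.3e-14). Dazl, an RNA-binding protein of germ cells, was at 19.7 and 18.4 in WT and 5.87 and 6.12 in BptfΔ (log2 fold change -1.67 ± 0.13, edgeR adjusted p = 4.8e-11). Fkbp6 was at 2.99 and 2.68 in WT and 0 and 0 in BptfΔ, so WT was at least 16.1-fold higher. Against these stood Stra8, which starts meiosis, with 4.93 and 4.67 in WT and 14.8 and 19.4 in BptfΔ (log2 fold change 1.83, not called without a batch term), and Tex13b, with 2.89 and 2.80 in WT and 51.2 and 52.98 in BptfΔ (log2 fold change 4.19 ± 0.18, edgeR adjusted p = 1.1e-16). The list was drawn from genes known to be derepressed when DNA methylation is lost, and the methyltransferase genes Dnmt3a, Dnmt3b and Dnmt3l fell in the same libraries (log2 fold changes -2.63, -1.83 and -2.41). DNA methylation was not measured in these libraries, and its part was not tested. Genes of the two-cell-like state were near the floor, and 5 of 11 fell (1 to 3 with any 1 library left out), with a median of -4.47, or -0.72 with the 6 members at 0 in BptfΔ set to their bound. Zscan4d was at 1.47 and 1.34 in WT and 0 and 0.116 in BptfΔ, and it has near-identical copies between which reads may be split.

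Imprinted genes fell in 12 of 55 cases and rose in 1. H19, a maternally expressed long non-coding RNA, was at 99.1 and 103 in WT and 0.0599 and 0.0578 in BptfΔ, 1 count in each BptfΔ library, and WT was 1714 times as high (95% counting interval 474 to 14157). Its neighbour Igf2, a growth factor gene expressed from the other allele, was at 8.98 and 10.9 in WT and 1.68 and 2.95 in BptfΔ (log2 fold change -2.09 ± 0.20, edgeR adjusted p = 1.3e-09). Peg3 was at 127 and 139 in WT and 32.3 and 33.5 in BptfΔ (log2 fold change -2.02 ± 0.11, edgeR adjusted p = 1.7e-14). Peg10 was at 276 and 331 in WT and 96.6 and 92.4 in BptfΔ (log2 fold change -1.68 ± 0.11, edgeR adjusted p = 3.7e-13), and both are paternally expressed. Sfmbt2 was at 116 and 122 in WT and 3.95 and 3.35 in BptfΔ (log2 fold change -5.03 ± 0.14, edgeR adjusted p = 1.2e-20). Thus the called genes included ones expressed from either parental allele. Meg3 and Rian of the Dlk1-Dio3 cluster had log2 fold changes of -0.11 and 0.03, and Plagl1, which rose with 4.83 and 5.95 in WT and 11.4 and 12.8 in BptfΔ (log2 fold change 1.17), had one of -0.025 without a batch term.

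Metabolic lists differed in direction. Of 43 genes of glycolysis and the hypoxia response, 9 fell and 4 rose (2 without a batch term), and 22 (51.2%) were lower without the fold minimum, against 20.2% of all genes tested. Ldha, which makes lactate, was at 1030.0 and 973 in WT and 401 and 394 in BptfΔ (log2 fold change -1.33 ± 0.056, edgeR adjusted p = 9.6e-17). Pdk1, which holds pyruvate dehydrogenase inactive, was at 224 and 218 in WT and 78.2 and 76.9 in BptfΔ (log2 fold change -1.51 ± 0.057, edgeR adjusted p = 7.3e-18). Slc16a3, a lactate exporter, was at 43.4 and 40.9 in WT and 15.4 and 17.9 in BptfΔ (log2 fold change -1.34 ± 0.12, edgeR adjusted p = 2.8e-10). These 3 were lower in both BptfΔ libraries. Hk1, a hexokinase, and Ak4, a mitochondrial adenylate kinase, rose with 54.5 and 51.9 in WT and 137 and 133 in BptfΔ (log2 fold change 1.34) and 34.96 and 35.4 in WT and 102 and 118 in BptfΔ (log2 fold change 1.65), Hk1 not without a batch term. Of 73 nuclear genes of oxidative phosphorylation 0 were called, but 26 (35.6%) were higher without the fold minimum and 0 lower, with a median of 0.20. Gldc, the glycine decarboxylase of the mitochondrial glycine cleavage system, was one of the most abundant genes that fell, at 319.8 and 307 in WT and 21.2 and 20.3 in BptfΔ (log2 fold change -3.92 ± 0.067, edgeR adjusted p = 8.5e-25). Bcat1, a branched-chain amino acid transaminase, rose at 307 and 308 in WT and 859 and 869 in BptfΔ (log2 fold change 1.49 ± 0.049, edgeR adjusted p = 6.0e-19).

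Stress and growth genes followed separate patterns. In the ATF4 list of amino acid stress, 0 of 34 fell and 4 rose, and 20 (58.8%) were higher without the fold minimum, against 21.4% of all genes tested. Atf5 was at 8.19 and 7.76 in WT and 54.5 and 53.1 in BptfΔ (log2 fold change 2.75 ± 0.12, edgeR adjusted p = 1.1e-16). Aldh1l2, a mitochondrial folate enzyme, was at 2.94 and 3.44 in WT and 9.52 and 9.42 in BptfΔ (log2 fold change 1.57). Atf4 itself was at 328 and 324 in WT and 582 and 591 in BptfΔ (log2 fold change 0.85 ± 0.059, edgeR adjusted p = 3.4e-12). The calls of Atf5, Aldh1l2 and Nupr1 were lost without a batch term. Among 41 p53 targets 2 (4.88%) fell (4 without a batch term) and 3 (7.32%) rose, against 8.59% and 5.25% of all genes tested. Without the fold minimum 20 (48.8%) were higher, against the same 21.4%, with a median of 0.32. Sesn1, a sestrin, was at 20.9 and 18.9 in WT and 52.5 and 53.8 in BptfΔ (log2 fold change 1.41 ± 0.083, edgeR adjusted p = 8.3e-14). Foxo3, a forkhead factor, was at 96.8 and 102 in WT and 237 and 236 in BptfΔ (log2 fold change 1.25 ± 0.067, edgeR adjusted p = 1.2e-14). Cdkn1a (p21) was at 10.7 and 9.51 in WT and 18.4 and 18.5 in BptfΔ (log2 fold change 0.87 ± 0.10, edgeR adjusted p = 3.7e-08), under the fold minimum. Of 34 genes of the Myc family and its targets, 3 (8.82%) fell (7 without a batch term) and 0 rose, close to the 8.59% of decreases among all genes tested. Without the fold minimum 19 (55.9%) were lower, against 20.2% of all genes tested. Myc was at 83.7 and 85.5 in WT and 26.9 and 27.8 in BptfΔ (log2 fold change -1.63 ± 0.077, edgeR adjusted p = 9.3e-16). Mycn was at 210.1 and 210.4 in WT and 64.4 and 66.5 in BptfΔ (log2 fold change -1.68 ± 0.072, edgeR adjusted p = 1.3e-16). In the cell cycle list 4 of 52 (7.69%) fell and 1 (1.92%) rose (2 without BptfΔ replicate 2), shares below the 8.59% and 5.25% of all genes tested. Ccne1 (cyclin E1) was at 355 and 352 in WT and 166 and 178 in BptfΔ (log2 fold change -1.04), close to the fold minimum and not called without BptfΔ replicate 1 or without a batch term, and the inhibitor gene Cdkn1b (p27) rose with 35.6 and 36.1 in WT and 95.2 and 93.6 in BptfΔ (log2 fold change 1.40 ± 0.075, edgeR adjusted p = 1.3e-14). Mki67 and Pcna, markers of proliferation, were not called and had log2 fold changes of 0.09 and 0.08.

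Genes of antigen presentation and the interferon response fell more often than they rose. Of 21 MHC class I genes 5 fell (3 without BptfΔ replicate 1 or WT replicate 1) and 0 rose, among them H2-K1 at 18.3 and 16.5 in WT and 8.38 and 8.72 in BptfΔ (log2 fold change -1.02 ± 0.12, edgeR adjusted p = 8.1e-08). B2m, the shared light chain, was at 11.1 and 11.1 in WT and 6.59 and 5.66 in BptfΔ (log2 fold change -0.86 ± 0.18, edgeR adjusted p = 2.1e-04), under the fold minimum. Class I genes are close copies of each other, between which reads may be split. Of 25 interferon-induced genes 6 fell and 1 rose. Gbp2, a guanylate-binding protein, was at 4.99 and 4.61 in WT and 0 and 0 in BptfΔ, so WT was at least 27.2-fold higher, and Xaf1 rose with 6.30 and 7.06 in WT and 24.7 and 23.6 in BptfΔ (log2 fold change 1.85 ± 0.12, edgeR adjusted p = 1.4e-12). Irf9, which carries the interferon signal, had a log2 fold change of 0.10.

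Among Eph receptors and potassium channels increases outnumbered decreases. Of 19 ephrin and Eph receptor genes, 7 rose and 4 fell. Ephb2 was at 29.2 and 28.4 in WT and 91.1 and 95.3 in BptfΔ (log2 fold change 1.69 ± 0.10, edgeR adjusted p = 3.7e-14). The ligand gene Efna2 was at 4.83 and 4.03 in WT and 13.7 and 14.4 in BptfΔ (log2 fold change 1.66), while Epha1 was at 12.97 and 12.8 in WT and 0.898 and 1.44 in BptfΔ (log2 fold change -3.45 ± 0.20, edgeR adjusted p = 4.9e-14). Of 61 potassium channel genes 13 (21.3%) rose and 8 fell (5 without BptfΔ replicate 2), against 5.25% and 8.59% of all genes tested. Of the 41 clustered protocadherin genes tested, 1 rose (0 without WT replicate 1 or either BptfΔ library) and 1 fell, 2.44% each way and below the same shares. Without the fold minimum, 23 were higher. These include the 22 Pcdhg genes, whose levels lay within a narrow range, from 37.4 for Pcdhga6 to 43.5 for Pcdhgc3 in WT. They share their last exons and so most of their reads, and are not independent.

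The single genes with the largest changes came from many classes. Among decreases with at least 100 counts in WT, Enpp2 (autotaxin, which makes lysophosphatidic acid), Vrtn and Ankrd1 had 0 counts in both BptfΔ libraries. Enpp2 was at 9.45 and 12.7 in WT and 0 and 0 in BptfΔ and Vrtn at 7.09 and 6.94 in WT and 0 and 0 in BptfΔ, so WT was at least 62.7-fold and 39.8-fold higher. Car4, a membrane carbonic anhydrase, was at 10.03 and 10.6 in WT and 0.180 and 0 in BptfΔ, where WT was 117 times as high (95% counting interval 39.6 to 568), and Plac8 at 20.5 and 22.8 in WT and 0.239 and 0 in BptfΔ. Each of them was nearly absent in both BptfΔ libraries. Among the increases, Klhdc7a was at 2.10 and 2.16 in WT and 52.2 and 53.7 in BptfΔ (log2 fold change 4.63 ± 0.17, edgeR adjusted p = 5.7e-18). Grm4, a metabotropic glutamate receptor, was at 0.472 and 0.467 in WT and 8.26 and 9.76 in BptfΔ (log2 fold change 4.25 ± 0.28, edgeR adjusted p = 9.6e-13). St8sia1, a ganglioside sialyltransferase, was at 1.15 and 1.52 in WT and 26.2 and 22.7 in BptfΔ (log2 fold change 4.20 ± 0.22, edgeR adjusted p = 4.8e-15). Irak3, an inhibitor of Toll-like receptor signalling, was at 5.46 and 5.31 in WT and 68.2 and 72.1 in BptfΔ (log2 fold change 3.70 ± 0.10, edgeR adjusted p = 6.9e-21). Cpe, a carboxypeptidase that matures peptide hormones, was at 9.34 and 9.63 in WT and 96.3 and 94.1 in BptfΔ (log2 fold change 3.33 ± 0.094, edgeR adjusted p = 1.6e-20). Kank4 was at 12.1 and 12.4 in WT and 109 and 111 in BptfΔ (log2 fold change 3.17 ± 0.09, edgeR adjusted p = 2.0e-20). Both BptfΔ libraries lay above both WT libraries in each of these genes. Of the increases that ended at high level, Ly75, an endocytic receptor, was at 123 and 116 in WT and 438 and 436 in BptfΔ (log2 fold change 1.87 ± 0.072, edgeR adjusted p = 1.2e-17). Fermt2 (kindlin-2, an integrin activator) was at 248 and 250.5 in WT and 683 and 664 in BptfΔ (log2 fold change 1.43 ± 0.062, edgeR adjusted p = 1.3e-16).

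All 4 Y-linked genes tested fell, and 3 of them were at or near 0 in BptfΔ. Ddx3y was at 91.8 and 95.2 in WT and 0.0599 and 0.0578 in BptfΔ, Uty at 45.7 and 47.97 in WT and 0 and 0 in BptfΔ and Eif2s3y at 71.8 and 73.9 in WT and 0.778 and 0.578 in BptfΔ, while in WT they were expressed in both libraries. Uba1y, the fourth, was at 1.21 and 1.58 in WT and 0.359 and 0.289 in BptfΔ, and its call was lost without either BptfΔ library or without WT replicate 2. For Uty, WT was at least 265-fold higher, and for Ddx3y it was 1589 times as high (95% counting interval 439 to 13125). Low levels of these genes were not particular to BptfΔ. Ddx3y had 1 count in each library of the line that lacks RSF1 and 1 to 3 counts in those of the line that lacks CECR2, against 1 in each BptfΔ library and at least 1611 in each of the 11 WT libraries. The median log2 fold change of the 314 X-linked genes with a WT level of at least 8 normalized CPM was -0.13, the lowest of the 20 chromosomes read, outside the segment of chromosome 6. The other medians lay between 0.01 and 0.09, and Xist was at 8.29 and 12.2 in WT and 11.2 and 11.04 in BptfΔ (log2 fold change 0.12 ± 0.22, edgeR adjusted p = 0.66). Loss of the Y chromosome in the clone and lower transcription of its genes cannot be told apart in these data.

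Genes of chromosome 6 between 66.9 and 94.3 Mb, a 27.4 Mb interval that had been chosen from these same data, form a class by position. Their values are a description with no test. Of 113 genes with a WT level of at least 8 normalized CPM, 110 were below 0 on the log2 scale, with a median of -0.83 (quartiles -1.04 and -0.57), a median ratio of 0.561 of BptfΔ to WT. The median of the 314 other genes of the chromosome was 0.03. In the other 5 lines the medians within the segment lay between -0.01 and 0.17. The boundaries were not sharp in single genes. On the left, Mad2l1 outside was at 0.04, Gng12 and Gadd45a just inside at -0.52 and -1.10, and Serbp1, also inside, at -0.06. On the right, Magi1 inside was at -0.92, and Slc25a26 and Lrig1 outside at -0.34 and 0.98. Of the 178 genes tested there, 49 passed the call as decreased and 4 as increased, so that the segment held 3.64% of all decreased calls. Some changes went beyond the shift of the segment. Adamts9, a matrix protease, was at 64.5 and 67.00 in WT and 9.88 and 10.6 in BptfΔ (log2 fold change -2.68). Slc4a5, a bicarbonate transporter, was at 16.2 and 14.2 in WT and 1.08 and 1.16 in BptfΔ (log2 fold change -3.77). The genes that rose against it were Tlx2 (0.262 and 0.409 in WT and 6.05 and 5.49 in BptfΔ), Mgll (0.682 and 0.584 in WT and 6.76 and 6.12 in BptfΔ), Gm20362 (0.157 and 0.117 in WT and 1.44 and 1.62 in BptfΔ) and Rab11fip5 (14.6 and 14.6 in WT and 29.2 and 31.4 in BptfΔ), of which Rab11fip5 was not called without BptfΔ replicate 2, and neither it nor Gm20362 without a batch term. Tet3 and Mcm2, members of the lists above, lie in the segment, and their log2 fold changes were -0.56 and -0.94.

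**Figure D4:**
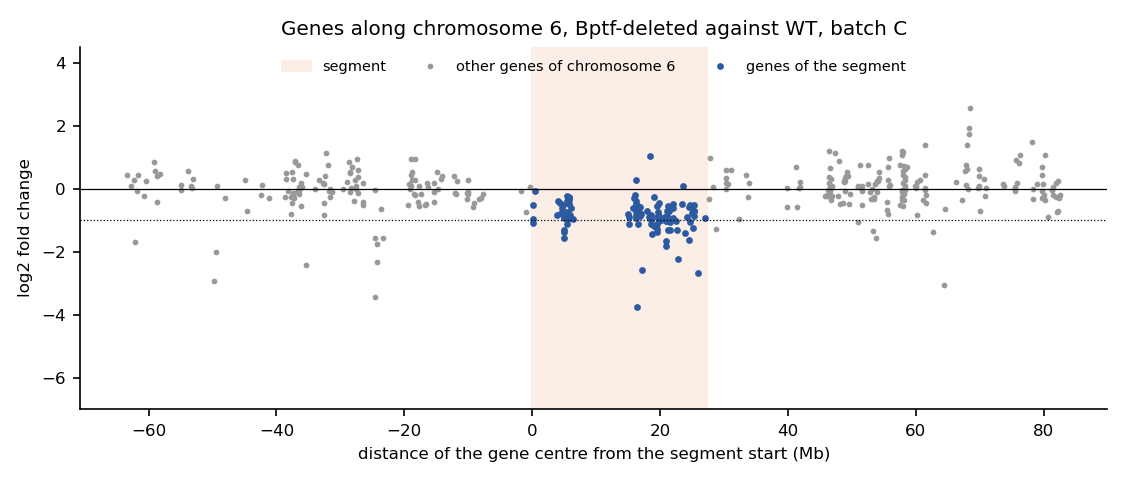
Log2 fold change of BptfΔ against WT for 427 genes of chromosome 6 with at least 8 normalized CPM in WT, by distance from the segment start in Mb. Grey points scatter around 0 and the 113 points of the shaded segment lie mostly below it, with a median of -0.83.

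The promoters of the genes that fell were poorer in CpG. CpG-rich promoters are usually active in most cells, and CpG-poor ones more often restricted to a tissue. A promoter was taken as CpG-rich when its observed to expected ratio of CpG was at least 0.6 over the 300 bases, and a gene when any of its starts was. Outside the segment, 45.6% of 981 decreased genes had one, and 62.8% of 613 increased genes, against 71.0% of all 12223 tested genes with a sequence. Since CpG-rich promoters are also more frequent among genes of higher level, the shares were read within levels. Between 10 and 100 normalized CPM in WT, 56.9% of 248 decreased, 68.8% of 157 increased and 83.1% of 4987 other genes had one. Between 1 and 10, the shares were 46.2% of 546 decreased and 62.9% of 313 increased genes, and 1277 of 2129 other genes had one. The decreased genes had the lowest share at each of the 4 levels. These are descriptions without a test, and genes are not independent. To show the range, 150 bases before the start are given for 2 genes that fell and 2 that rose, with each CG in capitals.
Cubn, chr2:13491877-13492026, minus strand: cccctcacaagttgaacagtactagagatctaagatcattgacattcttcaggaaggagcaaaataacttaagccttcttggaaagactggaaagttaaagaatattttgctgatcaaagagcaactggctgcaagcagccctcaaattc
Ankrd1, chr19:36119845-36119994, minus strand: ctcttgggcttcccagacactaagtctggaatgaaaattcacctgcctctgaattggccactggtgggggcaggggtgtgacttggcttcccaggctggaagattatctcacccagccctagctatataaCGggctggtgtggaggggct
Klf4, chr4:55532476-55532625, minus strand: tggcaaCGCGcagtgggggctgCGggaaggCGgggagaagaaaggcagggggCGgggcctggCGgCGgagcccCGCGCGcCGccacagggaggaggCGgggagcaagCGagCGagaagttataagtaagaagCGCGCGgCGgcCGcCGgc
Id4, chr13:48260966-48261115, plus strand: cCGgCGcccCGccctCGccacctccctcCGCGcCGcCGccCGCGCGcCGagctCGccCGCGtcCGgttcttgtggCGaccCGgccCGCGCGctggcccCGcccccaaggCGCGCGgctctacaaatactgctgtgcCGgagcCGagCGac
Cubn and Ankrd1 hold 0 and 1 CG in these stretches, and Klf4 and Id4 hold 20 and 28. Not all genes followed this order. Col4a1, which fell, holds 20 in the same window, and Klhdc7a, which rose, holds 3.

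**Figure D5:**
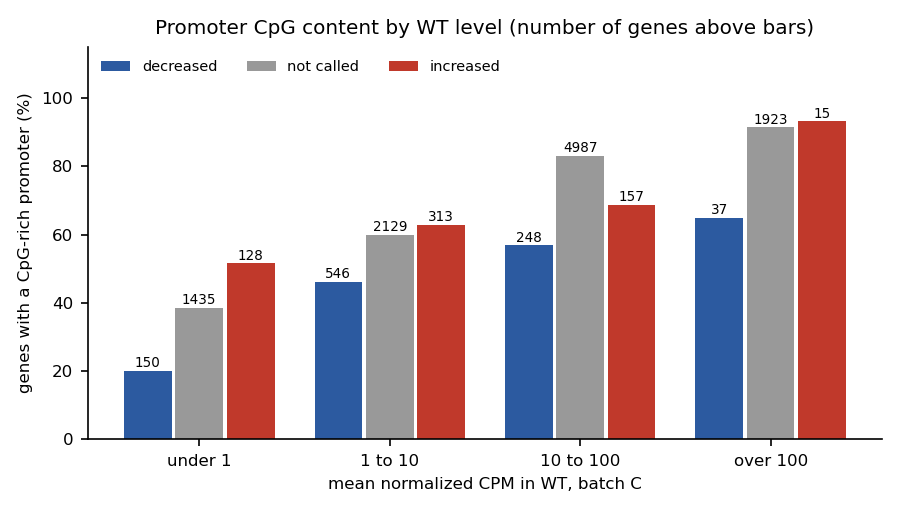
Share of genes with a CpG-rich promoter in 4 ranges of mean normalized CPM in WT, for decreased, not called and increased genes outside the chromosome 6 segment, with the number of genes above each bar. The decreased genes have the lowest bar in every range, which rises with the WT level to 64.9% over 100.

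The core of the CTCF motif was read in the same sequences as CCANNAGGNGGC on both strands. It was held by 1.22% of the decreased, 1.79% of the increased and 1.51% of all tested genes with a promoter sequence. It was in the sequences of 0 genes, of those with a sequence, on the lists of CTCF and cohesin, DNA methylation, naive pluripotency, ISWI complexes, primitive endoderm, basement membrane and imprinting. That says only that these letters were not in these windows, which do not reach distal sites.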

How the data were processed

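RNA-seq libraries of mESCs were counted per gene by the authors, who deposited a table of raw read counts for 24594 genes in 24 libraries. Per the study's methods, reads were aligned to mm10 with QuasR and Rhisat2 and quantified per gene. The deposited counts are labelled as counts over known genes of mm10. The handling of strand and of reads with several matches is not given in the sources used here. The deposited gene width, a value in bases per gene, was not used in tests. The labels name a stranded mRNA kit and the methods another TruSeq kit.

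Tests used edgeR 4.0.16 in R 4.3.3. Genes were kept by filterByExpr over all groups, libraries were scaled by TMM, and a quasi-likelihood model of batch and genotype was fitted on all 24 libraries, so that all groups shared 1 estimate of the spread. The contrast of BptfΔ rests on batch C, the only batch that holds it. Adjustment of p-values (Benjamini-Hochberg) ran over all 15682 genes that passed the filter. A gene was called at an adjusted p under 0.01 and a log2 fold change over 1. The difference from the other lines is the BptfΔ change minus the mean change of the other 5 lines in the same model.

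The members, gene lists (45 lists and 47 families), the chromosome 6 segment and the tests were chosen with earlier results of these data known. Genes named are Bptf and members of the ISWI, CTCF and cohesin, non-poly(A) and Y-linked lists, then up to 3 called members each way with the largest change per list whose libraries did not overlap and whose higher group had at least 10 counts, the 15 largest changes each way with at least 100 counts, the 10 most abundant each way, and in the segment the 6 largest decreases and every increase. Members named beyond this rule were picked after their values were seen, and some members are not reported here by name. Replicate libraries had Pearson correlations of 0.997 in each group and differed by more than sampling noise. In simulated counts for this comparison the model recovered 99% of 100 genes changed by 2 on the log2 scale and 95% of 100 changed by 1.5. There was 1 false call among 15682 genes. Changes were planted only in genes above a minimum mean count in batch C. The spread was drawn from the trend over level, without a part of its own for each gene, and the filter was not redone. These rates therefore do not cover genes below that minimum or genes with more spread than the trend. Promoters were RefSeq sequences of GRCm38.p6, the assembly mm10 is based on. Intervals and floors cover counting error only. DESeq2 1.42.0, other scalings, filters and models, a replicate block and the omission of each library were run as alternatives. Columns left unmapped numbered 0.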

Additional observations from a re-analysis of the deposited data

How the results depend on the processing

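Of 2171 called genes, 1347 lower and 824 higher, 94.0% kept their call with DESeq2, 99.2% with library sizes alone, 99.6% with scaling without RNAs that lack a poly(A) tail, and 92.4% with the 4 libraries of batch C alone. The median of all genes tested was 0.015 on the log2 scale and lay between -0.038 (no batch term) and 0.023 under the settings run. With at least 10 counts required in each batch C library, which leaves 1427 of the called genes in the test, 1440 genes were called (777 lower) and 1397 outside the segment. A test against a 2-fold change (glmTreat) called 999 (672 lower, 327 higher, 977 outside the segment). Without a fold minimum 6523 passed (3173 lower, 3350 higher, 6394 outside). Leaving out each library in turn gave 1862 to 1988 called genes, 1106 to 1206 lower and 756 to 782 higher, 1814 to 1937 outside the segment and 4069 to 4172 that differed from the other lines, against 5367. Between 24 and 36 of 386 named genes lost their call in each of these fits, which assume that the lone library of a group varies like the other groups.

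Of the 55 list counts of at least 5 called genes, 18 moved by more than 1.5 times when any 1 library was left out (2 to 12 per library, the most without BptfΔ replicate 2), 29 with the 10-count minimum, 35 with glmTreat, 7 without a batch term, 2 with DESeq2 and 0 with the replicate block or library sizes alone. With the 10-count minimum, 6 primitive endoderm factors were still called as lower against 12, 5 visceral endoderm genes against 10, 7 trophectoderm genes against 12, 7 YAP and SRF genes against 12 and 4 collagens against 16, since the minimum also removes genes near 0 in BptfΔ.

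Replicate numbers did not pair the libraries, since the libraries that share a number did not deviate together (correlation of deviations -0.05). With a replicate block 2093 genes were called (1288 lower, 805 higher), 2043 outside the segment, and 4873 differed from the other lines. Pcdhb22, Cacna1e, Sp5, Snora24 and 4933427D06Rik were among the named genes that lost their call with it. Without a batch term, against all 11 WT libraries, 2368 were called, 74.4% of the calls were kept and 30 changed sign. Plagl1 was then at -0.025, Cald1 at -0.18, Snord34 at 0.49 and Snora24 at 1.0015 on the log2 scale, and the cause was not tested. Depth limits genes near 3 counts per library. Only levels, bounds or ratios with counting intervals are given where a gene held 0 to 3 counts in each BptfΔ library, and fitted changes of genes just above this, such as Rxrg, Cyp26a1 and Lef1, carry wide errors.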

Other observations

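Neural and ectodermal genes moved both ways. Of 30 tested, 9 fell and 5 rose. Sox21 and Sox1, SOX factors of neural progenitors, rose, Sox21 with 4.09 and 4.49 in WT and 37.9 and 35.1 in BptfΔ (log2 fold change 3.09 ± 0.12, edgeR adjusted p = 1.2e-17) and Sox1 with 3.67 and 3.44 in WT and 17.7 and 16.4 in BptfΔ (log2 fold change 2.26 ± 0.16, edgeR adjusted p = 7.5e-12). Gap43, a growth cone protein, fell with 11.6 and 12.3 in WT and 2.10 and 2.25 in BptfΔ (log2 fold change -2.45 ± 0.16, edgeR adjusted p = 5.6e-13), and Pax6, a homeodomain factor of the neural plate, with 5.72 and 5.37 in WT and 1.92 and 1.96 in BptfΔ (log2 fold change -1.51 ± 0.23, edgeR adjusted p = 3.5e-06). The libraries of the groups did not overlap in these 4 genes. Of 29 primitive streak and mesoderm genes, 2 (6.90%) fell (1 without WT replicate 2) and 4 (13.8%) rose (2 without a batch term), against 8.59% and 5.25% of all genes tested. T (brachyury) had 1.42 and 1.34 in WT and 0.0599 and 0.0578 in BptfΔ, and Kdr, a receptor of VEGF, rose with 1.78 and 1.98 in WT and 11.4 and 12.6 in BptfΔ (log2 fold change 2.67 ± 0.21, edgeR adjusted p = 2.5e-11). Of 18 Sox genes 7 fell and 2 rose, and of 38 receptor subunits for glutamate, GABA, glycine and acetylcholine 5 fell (2 and 3 without BptfΔ replicates 1 and 2) and 7 rose (4 without BptfΔ replicate 2 or WT replicate 1), among them Grin2a with 0.157 and 0.233 in WT and 3.53 and 4.10 in BptfΔ (log2 fold change 4.27 ± 0.53, edgeR adjusted p = 1.5e-07) and Grik3 with 53.4 and 57.7 in WT and 164 and 166 in BptfΔ (log2 fold change 1.57 ± 0.11, edgeR adjusted p = 5.5e-12).

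Rhox homeobox genes of the X chromosome fell in 5 of 6 cases tested. Rhox5, the member with the most reads, was at 86.4 and 80.01 in WT and 6.47 and 6.18 in BptfΔ (log2 fold change -3.72 ± 0.13, edgeR adjusted p = 1.8e-18), and Rhox6 at 6.35 and 5.89 in WT and 0.539 and 0.578 in BptfΔ (log2 fold change -3.44 ± 0.30, edgeR adjusted p = 1.9e-10). Of 375 tested zinc finger genes named Zfp, 20 fell (5.33%) and 5 rose (1.33%, or 14 genes without a batch term), against 8.59% and 5.25% of all genes tested. Zfp516 was at 37.2 and 35.5 in WT and 159 and 164 in BptfΔ (log2 fold change 2.15 ± 0.082, edgeR adjusted p = 9.9e-18) and Zfp981 at 41.4 and 43.9 in WT and 6.35 and 5.72 in BptfΔ (log2 fold change -2.82 ± 0.11, edgeR adjusted p = 1.0e-17), the latter one of several close copies. Of 78 mitochondrial ribosomal protein genes, 29 were lower and 7 higher without the fold minimum. The 2 that were called, Mrpl35 (70.3 and 64.7 in WT and 27.1 and 25.4 in BptfΔ) and Mrpl19 (74.7 and 74.6 in WT and 32.9 and 35.1 in BptfΔ), lie in the chromosome 6 segment. Among 34 cholesterol genes 15 were higher without the fold minimum, and Abca1, a cholesterol exporter, was the 1 called (2 without a batch term), at 26.3 and 29.9 in WT and 93.2 and 86.03 in BptfΔ (log2 fold change 1.68 ± 0.13, edgeR adjusted p = 2.5e-11). That single call is 2.94% of the list, against 5.25% of increases among all genes tested. Of 42 lysosomal genes, Ctsh (cathepsin H) and Lipa (lysosomal acid lipase) fell (4 genes without a batch term), Ctsh with 13.6 and 14.5 in WT and 0.299 and 0.751 in BptfΔ (log2 fold change -4.72), and Grn (progranulin) rose with 54.1 and 51.6 in WT and 121 and 133 in BptfΔ (log2 fold change 1.27), a call not made without a batch term. The called shares of this list, 4.76% lower and 2.38% higher, were below the 8.59% and 5.25% of all genes tested. Pcgf5 was the 1 called of 30 Polycomb genes (3 lower without a batch term, and 1 higher besides without BptfΔ replicate 1 or WT replicate 1), at 16.6 and 18.9 in WT and 3.95 and 4.16 in BptfΔ (log2 fold change -2.13 ± 0.16, edgeR adjusted p = 1.8e-11). It makes up 3.33% of the list, against 8.59% of decreases among all genes tested.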
